A study of Mus musculus with 12 samples.

Results

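Toll-like receptor and cytokine signaling was followed through 9 genes in the hypothalamus of mice that drank alcohol or water alone. The genes were Tlr2, Tlr3, Tlr4, Myd88, Nfkbia, Tnf, Il1b, Il6 and Ccl2, taken as a named group of the pathway. Every non-control probe whose gene name in the array files was one of these 9 was used, which gave 11 probes and 74 spots, of 41174 probes and 43379 spots on the array. Tlr3 and Tlr4 had 2 probes each, and the other genes had 1.

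Toll-like receptors recognize molecules of microbes and of damaged cells. TLR2 and TLR4 sit at the cell surface, where TLR4 is best known as the receptor for bacterial lipopolysaccharide, and TLR3 binds double-stranded RNA in endosomes. Most Toll-like receptors, TLR2 and TLR4 among them, signal through the adaptor MYD88, whereas TLR3 uses another adaptor. The signal frees the transcription factor NF-κB from its inhibitor IκBα, the product of Nfkbia, and NF-κB then switches on cytokines such as TNF, interleukin-1β and interleukin-6, the monocyte chemokine CCL2, and Nfkbia itself, which closes the loop. In the brain the pathway is best known from microglia, the resident macrophages, and it is much studied in models of heavy alcohol intake.

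The mice were male and of the outbred ICR strain, with no genetic change, and they entered the experiment when 3 weeks old. Alcohol mice chose between a tube of water and a tube of 5% or 10% alcohol, and water-only mice had water in both tubes. RNA was pooled before hybridization, with 9 water mice in 3 pools of 3 and 19 alcohol mice in 9 pools of 1 to 3, and each pool gave 1 array, 12 in all. The labels sort the alcohol pools into 3 groups of 3, low drinkers, early high drinkers and late high drinkers, so the drinker groups rest on how much the mice themselves drank, and the labels do not give which pools held 5% or 10% mice.

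The signal of a spot is given here as a scaled log2 signal, the log2 of its background-corrected intensity minus the 75th percentile of its array, so that 0 is the signal exceeded by 25% of the spots. A probe was counted as well above background on an array when over 50% of its spots carried that mark from the image software. Between 67.0% and 79.3% of all spots carried it on an array, and no spot was saturated. The arrays lay on 3 slides of 4 that held the groups unequally: slide 1 took all 3 water pools and 1 pool of low drinkers (pool 1), slide 2 the remaining pools of low drinkers (2 and 3) beside pools 1 and 2 of the early high drinkers, and slide 3 all late high drinkers and the last early pool (pool 3). Slide 1 was scanned on another day than slides 2 and 3. No water pool lay on slide 2 or 3, so that for 8 of the 9 alcohol pools alcohol and slide cannot be told apart. All 8 markers of hypothalamic neuropeptide neurons and all 10 markers of microglia in the lists used were well above background on 12 of 12 arrays.

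What each probe reads decides what can be said of its gene. The probe of Nfkbia is shown whole, since its 60 bases match 496 bases of the minus strand at chr12:56590945-56591440 in mm9 and so cross a junction between exons, which spliced RNA has and genomic DNA lacks.

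Nfkbia: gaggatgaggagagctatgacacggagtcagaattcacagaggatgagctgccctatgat

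The 2 probes of Tlr3 and the 2 of Tlr4 are shown by their first 30 bases because they did not read alike. The Tlr3 probes lie 220 bases apart on the minus strand of chromosome 8, and the Tlr4 probes lie 86773 bases apart on the plus strand of chromosome 4, the second being assigned to the gene through a cDNA clone. Positions are in mm9, copied from the array annotation.

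Tlr3, first probe, chr8:46482009-46482068: gggcagttaaaaacatcctctattaataga

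Tlr3, second probe, chr8:46481729-46481788: taatgctcatttttgagacgtttatagaat

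Tlr4, first probe, chr4:66503724-66503782: tgtgatagggctttaaatagttgagctaat

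Tlr4, second probe, chr4:66590556-66590615: gaaccaagagaactttaacgcttacatctg

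For Tlr3, 12 of 12 arrays read the first probe well above background and 9 the second. For Tlr4 the counts were 8 of 12 arrays for the first probe and 0 for the second. The gene is given below by its first probe in both cases.

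Before any comparison, the genes fell into 2 sets by whether the hypothalamus gave a signal at all. The receptors Tlr2, Tlr3 and Tlr4, the adaptor Myd88, the inhibitor Nfkbia and the chemokine Ccl2, 6 genes in all, were well above background on over 50% of the arrays, a limit set after the values were seen. Tlr2, Tlr3, Myd88, Nfkbia and Ccl2 were so on all 12. The 3 cytokine genes Tnf, Il1b and Il6 were well above background on 0 of 12 arrays. Of 120 spot readings, 8 carried the mark for Tnf, 0 for Il1b and 0 for Il6. This does not say that the RNA was absent. On low drinker pool 2, 4 of the 10 Tnf spots carried the mark.

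**Figure D1:**
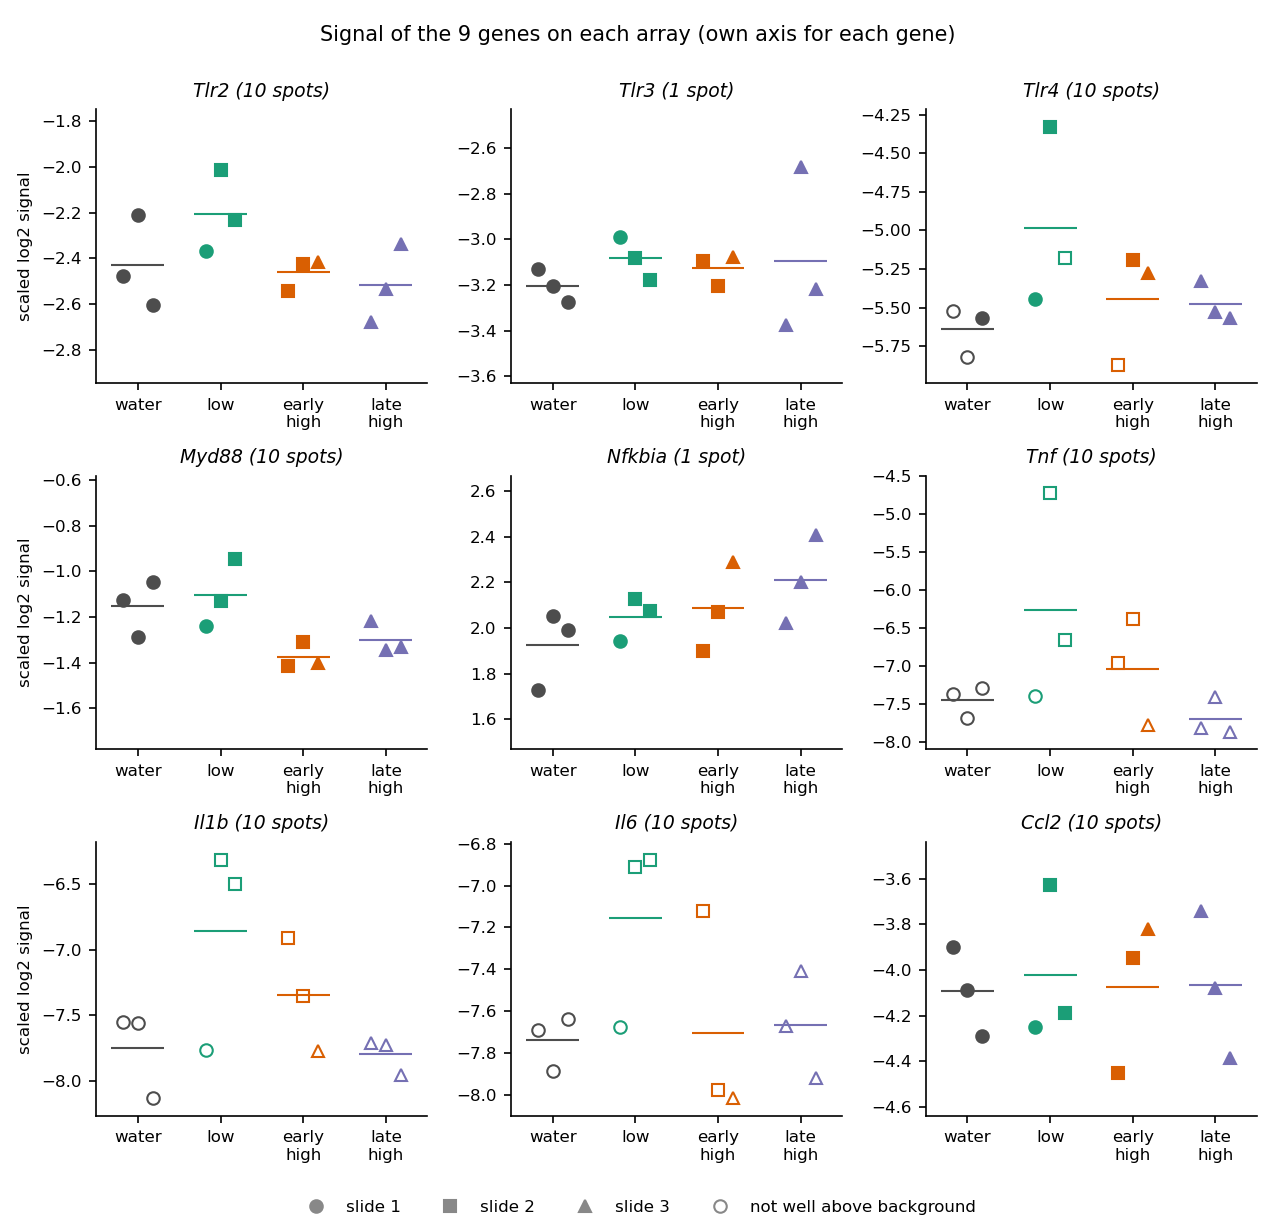
Scaled log2 signal of each gene on each of the 12 arrays, by group, with pools 1 to 3 from left to right and a line at the mean of a group. Marker shapes give the slide, and open markers the arrays on which the probe was not well above background. All markers of Tnf, Il1b and Il6 are open, and low drinker pool 2 is the highest array for Tlr2, Tlr4, Tnf, Il1b and Ccl2.

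Alcohol against water, 9 arrays against 3, was the comparison of the study. Of the 8 genes that could be tested (Il6 had too few spots with a signal/noise ratio of at least 2), 0 had an adjusted p under 0.05 and 0 an unadjusted p under 0.05 in limma, where 0.0% and 5.53% of all 32376 probes tested did so. The median change of the 5 genes above background on every array was 0.04 on the log2 scale, beside 0.03 over all probes tested. The 3 against 9 arrays limit this comparison. Its p-values measure the spread between arrays within the water and the alcohol group. That spread holds labeling, hybridization, slide and the differences among the drinker groups beside the pools.

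The receptors come first. Tlr2 read -2.48, -2.21 and -2.60 in the water pools 1 to 3, -2.37, -2.02 and -2.23 in the low drinkers, -2.54, -2.43 and -2.42 in the early high drinkers, and -2.68, -2.53 and -2.34 in the late high drinkers. The low drinkers included the highest array and the late high drinkers the lowest. Each drinker group overlapped the water pools, while all 3 low drinker arrays lay above all 3 early high drinker arrays. The alcohol arrays averaged -2.39 ± 0.19 (SD, n = 9) and the water arrays -2.43 ± 0.20 (SD, n = 3). The difference was 0.04 (SE 0.12, limma adjusted p = 0.961), with a 95% interval from 0.849-fold to 1.24-fold. Its sign turned without water pool 3 and without low drinker pool 2.

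Tlr3 read -3.13, -3.20 and -3.27 in the water pools, -2.99, -3.08 and -3.18 in the low drinkers, -3.10, -3.20 and -3.08 in the early high drinkers, and -3.37, -2.68 and -3.22 in the late high drinkers. Late high drinker pools 1 and 2 held the lowest and the highest value of all 12 arrays. The difference was 0.10 (SE 0.11, limma adjusted p = 0.863; interval 0.905-fold to 1.27-fold). The second probe gave 0.05 (SE 0.18, limma adjusted p = 0.964), and late high drinker pool 2, at -5.03, was not the highest array there, since low drinker pool 1 read -4.82.

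Tlr4, the lipopolysaccharide receptor, was close to the background. It read -5.52, -5.82 and -5.57 in the water pools, -5.45, -4.33 and -5.18 in the low drinkers, -5.87, -5.19 and -5.27 in the early high drinkers, and -5.33, -5.53 and -5.57 in the late high drinkers. Low drinker pool 2 stood 0.85 above the next array, low drinker pool 3, on which 0 of 10 spots were well above background. Of the water arrays 1 of 3 read the probe well above background, and of the alcohol arrays 7 of 9. Since the probe was not well above background on 2 of 3 water arrays, and entered the 6 genes through the alcohol arrays, no difference from water is given for Tlr4.

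Myd88, the adaptor, read -1.12, -1.29 and -1.05 in the water pools and -1.24, -1.13 and -0.94 in the low drinkers. It read -1.42, -1.31 and -1.40 in the early high drinkers and -1.22, -1.34 and -1.33 in the late high drinkers. All 6 high drinker arrays lay below the water mean of -1.15 ± 0.12 (SD, n = 3), while the low drinkers lay on both sides of it. Over all alcohol arrays the difference was -0.11 (SE 0.10, limma adjusted p = 0.844; interval 0.804-fold to 1.07-fold).

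Nfkbia, the inhibitor and a target of NF-κB, had array intensities between 5636 and 9825. It read 1.73, 2.05 and 1.99 in the water pools, 1.94, 2.13 and 2.08 in the low drinkers, 1.90, 2.07 and 2.29 in the early high drinkers, and 2.02, 2.20 and 2.41 in the late high drinkers. Water pool 1 was the lowest array and late high drinker pool 3 the highest, and 8 of 9 alcohol arrays lay above the water mean of 1.92 ± 0.17 (SD, n = 3). The difference was 0.19 (SE 0.11, limma adjusted p = 0.819; interval 0.971-fold to 1.34-fold). Slides held 52.3% of its variance over the 12 arrays and the 4 conditions 35.4%. With slide or scan day as a block the difference was 0.02, which is also that of low drinker pool 1 from the 3 water pools on slide 1.

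Ccl2, which draws monocytes, read -3.90, -4.09 and -4.29 in the water pools, -4.25, -3.63 and -4.19 in the low drinkers, -4.45, -3.95 and -3.82 in the early high drinkers, and -3.74, -4.08 and -4.38 in the late high drinkers. Each group spanned much of the range of the others, and the 4 conditions held 1.06% of its variance. The difference was 0.04 (SE 0.17, limma adjusted p = 0.973; interval 0.791-fold to 1.33-fold), with a sign that turned when water pool 3, low drinker pool 2 or late high drinker pool 1 was left out, under quantile normalization and with slide or scan day in the model. As a fixed block, slide or scan day leaves only low drinker pool 1 against the 3 water pools on slide 1, at -0.16. In pooled tissue RNA a difference in the number of cells that make a transcript and in the RNA per cell cannot be told apart for any of these genes.

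An exact permutation test over the 220 ways to pick 3 of 12 arrays, 2-sided, can give a p as low as 0.00455. This permutation test gave p = 0.118 for Nfkbia, 0.300 for Myd88, 0.391 for Tlr3, 0.800 for Tlr2 and 0.855 for Ccl2. None of the 11 probes had all alcohol arrays on 1 side of all water arrays. Few of the 220 ways would set 3 arrays apart, and the share over all probes was not counted. This count therefore tells little about these genes.

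**Figure D2:**
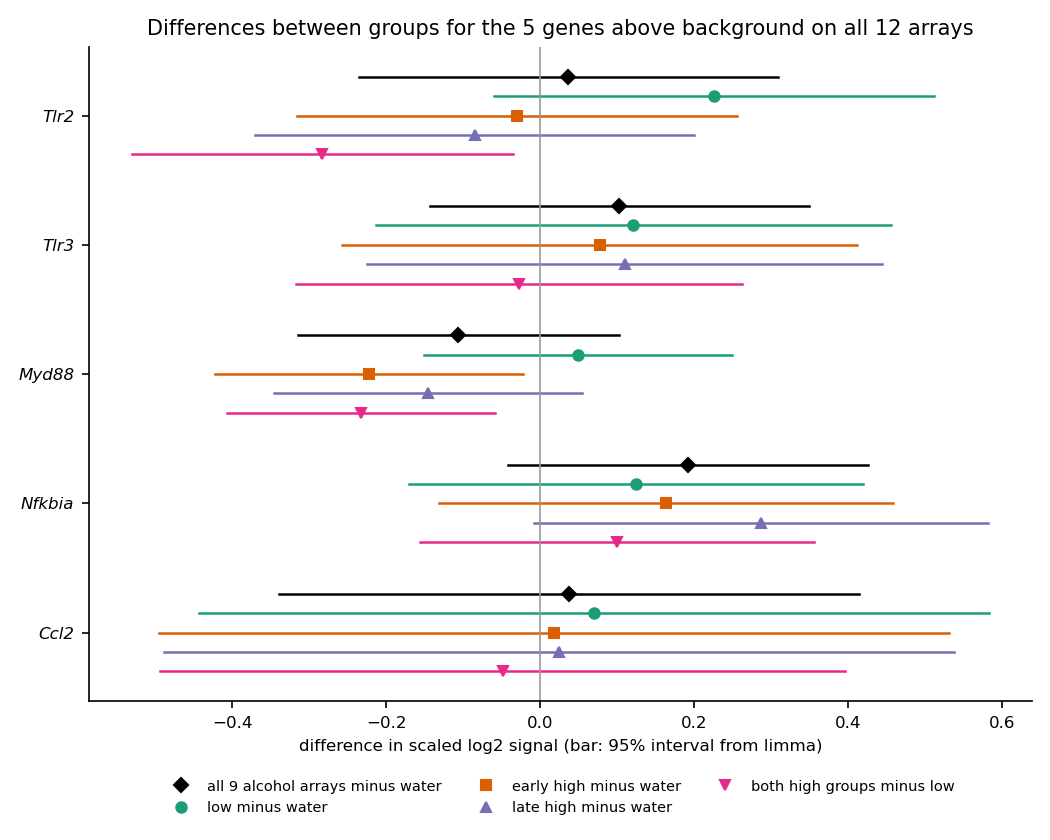
Differences between groups in scaled log2 signal for the 5 genes well above background on all 12 arrays, with 95% intervals from limma. For alcohol against water every interval crosses 0. The intervals that do not cross it are those of Myd88 in early high drinkers against water, and Tlr2 and Myd88 in the high against the low drinkers, and none of these passed an adjusted p of 0.05.

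The cytokine genes gave no fold, since neither group was above background. Tnf read -7.36, -7.68 and -7.29 in the water pools, -7.40, -4.73 and -6.66 in the low drinkers, -6.96, -6.39 and -7.77 in the early high drinkers, and -7.82, -7.40 and -7.86 in the late high drinkers. Low drinker pool 2 stood apart, with 4 of its 10 spots well above background against at most 1 on any other array. Il1b lay between -8.13 and -7.55 in the water pools and reached -6.32 and -6.50 in low drinker pools 2 and 3. Il6 lay between -7.88 and -7.64 in the water pools and reached -6.91 and -6.88 in the same pools. These are also the arrays on which undetected probes of any gene read high. Among the 6398 probes that were well above background on 0 arrays, 56.8% had their highest value on low drinker pool 2 and 32.5% on low drinker pool 3. The second probe of Tlr4, with 0 of 12 arrays above background, read -6.54 on each of these arrays and -8.13 to -7.38 in the water pools.

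The spots within an array show how finely a gene was measured. For 7 of the genes the array held 10 spots of the same probe. For Tlr2 the standard error of the mean of 10 spots was 0.023, and the SD between arrays of a group was 0.16, 6.99 times as large. For Myd88 the values were 0.023 and 0.11 (4.75 times), for Ccl2 0.047 and 0.30 (6.46 times) and for Tlr4 0.083 and 0.36 (4.36 times). Each pool had 1 array, so the spread between arrays holds labeling and hybridization error beside any difference between pools. Nfkbia and Tlr3 had 1 spot per probe, and no such value can be given for them.

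**Figure D3:**
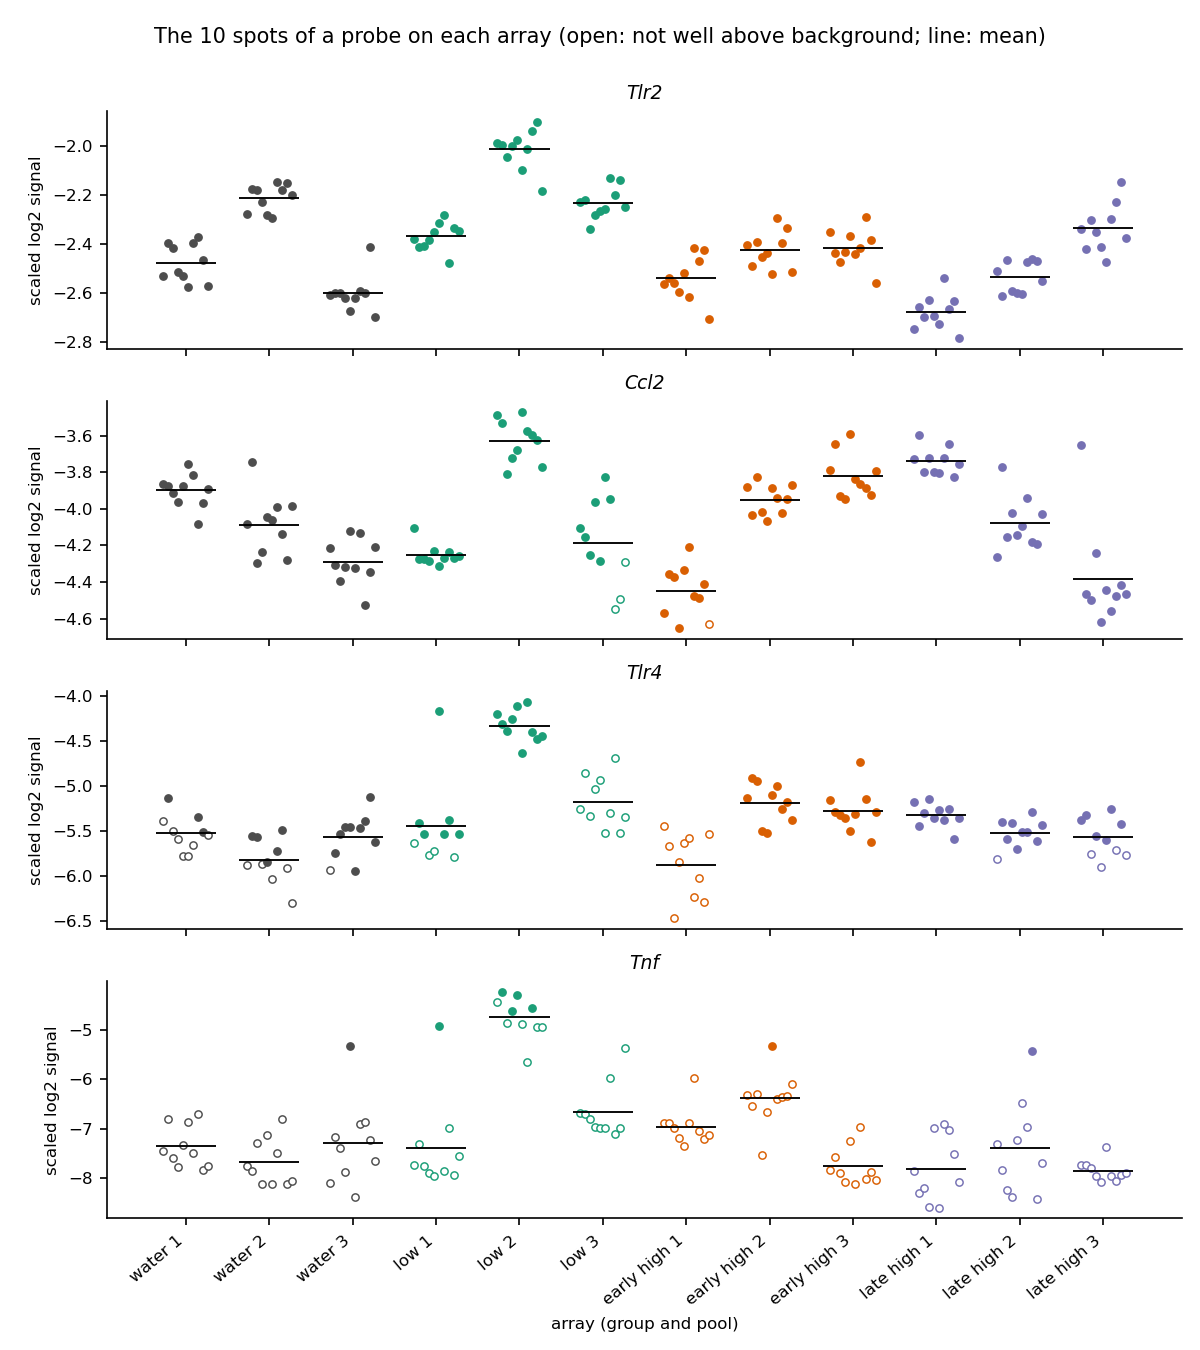
Scaled log2 signal of the 10 spots of the probes of Tlr2, Ccl2, Tlr4 and Tnf on each of the 12 arrays, with outlier spots left out and a line at the mean. Filled points are well above background. The spots of Tlr2 lie close together on every array, and for Tnf low drinker pool 2 is the only array with over 1 filled spot.

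Among the 4 conditions, each with 3 arrays, the labels allow the amount and timing of drinking to be compared. For any difference among the 4, 0 of 8 genes passed an adjusted p of 0.05 and 2 an unadjusted p of 0.05, against 0.00632% and 14.4% of all 31622 probes tested. These were Myd88 (limma adjusted p = 0.334) and Tnf (limma adjusted p = 0.108). Myd88 stayed past the unadjusted threshold in 7 of 22 alternatives, and was not past it with quantile normalization, with no scaling, or with slide or replicate number as a fixed block.

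In low drinkers against water, 0 of 8 genes passed an adjusted p of 0.05 (0.218% of all probes) and 2 an unadjusted p (9.08%). These were Tlr4 and Tnf, and no size is given, since of the 3 water arrays 1 read the probe of Tlr4 well above background and 0 that of Tnf. Tlr4 had a limma adjusted p of 0.521, and 1.00 without low drinker pool 2. On low drinker pool 3, second highest at -5.18, 0 of 10 spots of Tlr4 were well above background. Tnf had a limma adjusted p of 0.0753, but after the filter on the signal/noise ratio its values in low drinker pools 1 and 3 rested on 1 of 10 spots each, and with all spots the adjusted p was 0.344.

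In early high drinkers against water, 0 of 8 genes passed an adjusted p of 0.05 (0.0% of all probes) and 1 an unadjusted p (4.7%). Myd88 averaged -1.38 ± 0.06 (SD, n = 3) against -1.15 ± 0.12 (SD, n = 3) in water, a difference of -0.22 (SE 0.09, limma adjusted p = 0.890). All 3 early high drinker arrays lay below all 3 water arrays. Its sign was the same under 23 of 23 alternatives, from -0.42 with scan day as a block to -0.17. The unadjusted threshold was passed in 17 of the 23. It was not passed without water pool 1 or 3, without early high drinker pool 1 or 3, with no scaling or with normexp. Leaving out a low or late high drinker array cannot change this difference.

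In late high drinkers against water, 0 of 8 genes passed an adjusted p of 0.05 (0.0% of all probes) and 0 an unadjusted p (15.9%). Nfkbia had the smallest p, with a difference of 0.29 (SE 0.13, limma adjusted p = 0.328). It was 0.19 without water pool 1 and also without late high drinker pool 3. Without late high drinker pool 1 it was 0.38, and with no scaling between arrays 0.41. Of 23 alternatives, 6 passed the unadjusted and 0 the adjusted threshold. The difference became -0.18 when slide entered as a fixed block, 0.25 as a random block, and 0.13 when scan day was the block. No water pool shared a slide or a scan day with a late high drinker pool. All 3 late high drinker arrays also lay below all 3 water arrays in the summed signal of red blood cell markers and above them in that of neuron markers, and the part of this was not tested. The comparisons with water share the same 3 water arrays.

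In the 6 high drinker arrays against the 3 low drinker arrays, 0 of 8 genes passed an adjusted p of 0.05 (0.0221% of all probes) and 3 an unadjusted p (14.7%). Myd88 was lower in the high drinkers by a log2 difference of -0.23 (SE 0.08, limma adjusted p = 0.252) and Tlr2 by -0.28 (SE 0.11, limma adjusted p = 0.298). Without low drinker pool 2 the values were -0.25 for Myd88 and -0.19 for Tlr2 (limma adjusted p = 0.507 and 0.669), and without low drinker pool 3 they were -0.15 and -0.30. Without low drinker pool 1 they were -0.30 and -0.37 (limma adjusted p = 0.0606 and 0.102). Fitted with slides as fixed blocks, Myd88 gave -0.27 and Tlr2 -0.41 (limma adjusted p = 0.389 and 0.380), and neither passed the unadjusted threshold. Slide 2 held 2 pools each of the low and the early high drinkers. There the early high pools minus the low pools gave -0.32 for Myd88 and -0.36 for Tlr2. The same difference was -0.29 for Ccl2, -0.12 for Nfkbia and -0.02 for Tlr3. These low pools are also the arrays on which undetected probes read high. Under quantile normalization the high against the low drinkers gave -0.20 for Myd88 and -0.20 for Tlr2. Tlr2 then did not pass the unadjusted threshold. Over all probes the median of the high against the low drinkers was -0.05. It was 0.08 with no scaling between arrays, where Myd88 gave -0.10 and Tlr2 -0.16. Tnf was the third gene (limma adjusted p = 0.0807, and 0.270 with all spots). The summed markers of the anterior pituitary also separated these groups, at 0.911 to 6.44 in the high and 6.90 to 9.40 in the low drinkers, and their part in these values was not tested.

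In late against early high drinkers, 0 of 8 genes passed an adjusted p of 0.05 (0.0% of all probes) and 0 an unadjusted p (12.4%). The differences of the 5 genes above background on every array lay between -0.05 for Tlr2 and 0.12 for Nfkbia. None of the 8 genes tested reached an adjusted p of 0.05 in any of the 7 comparisons.

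The wider pathway was read from a list of 75 other genes, of which 71 were on the array and 62 could be tested. In alcohol against water 0 of 62 passed an adjusted p of 0.05, and at an unadjusted p of 0.05 there were 1 rise and 2 falls, against 5.53% of all probes. The median change of the 62 was 0.01. The 3 genes past the unadjusted p did not pass after adjustment (limma adjusted p = 0.819 for each). Stat3, the transcription factor behind interleukin-6 receptors, gave 0.21 (SE 0.09). Ccl12, a chemokine close to Ccl2 in sequence that binds the same receptor, gave -0.48 (SE 0.16). Tlr9, the receptor for unmethylated CpG DNA, gave -0.26 (SE 0.10), between -0.31 and -0.02 over 24 alternatives.

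By role, the 5 other Toll-like receptors tested had a median of -0.11, and the 3 co-receptors Cd14, Ly96 and Lbp, which present lipopolysaccharide to TLR4, had -0.04. The 17 adaptors and kinases had a median of 0.00, with 14 of them well above background on all arrays. The 12 genes of NF-κB and interferon regulatory factors, all 12 well above background on every array, had 0.07, between -0.05 and 0.22. The 5 other cytokines had 0.07, the 9 other chemokines -0.01, and the 11 cytokine receptors and response genes 0.01. Well above background on every array were 3 of these cytokines, 4 of the chemokines and all 11 receptors and response genes. The chemokines lay between -0.48 and 0.93, so their median rests partly on probes near the background. Of the listed genes, 5 were well above background on 0 arrays: the adaptor Ticam2, the NF-κB subunit Rel, and the cytokines Il10, Il12b and Ifnb1. 

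**Figure D4:**
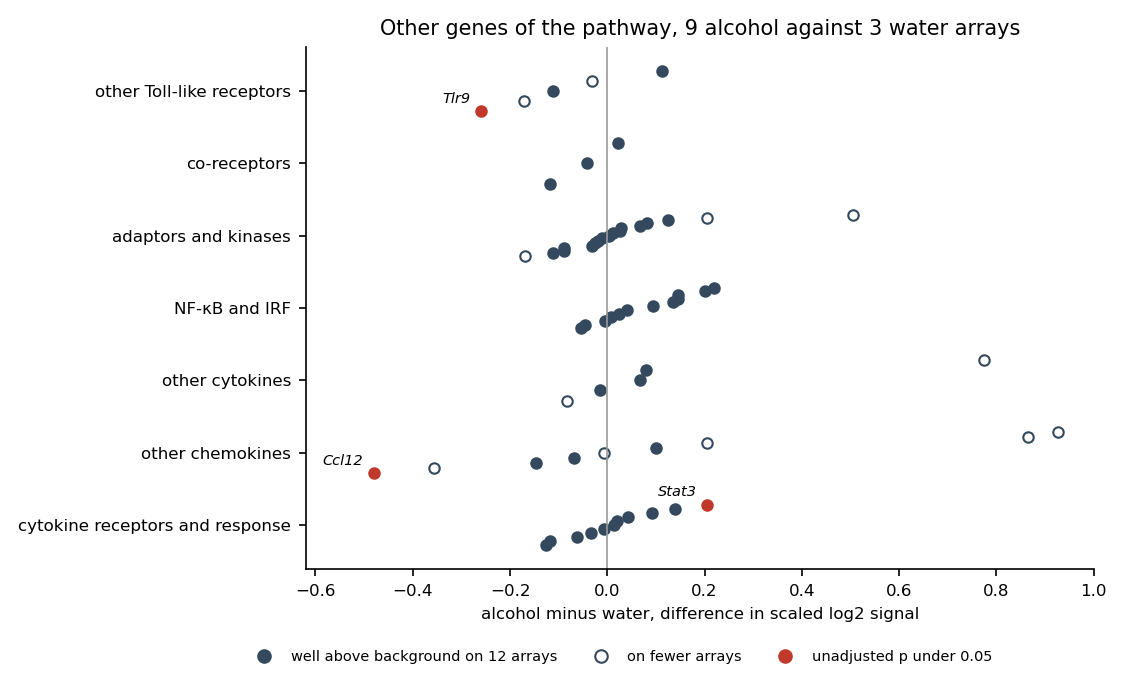
Difference in scaled log2 signal between 9 alcohol and 3 water arrays for the 62 other pathway genes tested, by role. Filled points were well above background on 12 arrays. The median of the 62 is 0.01, and the 3 red points, Stat3, Ccl12 and Tlr9, have an unadjusted p under 0.05 and an adjusted p of 0.819.

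Microglia carry much of this pathway in the brain, so their markers are given beside it. The summed signal of the 10 markers, each relative to the 75th percentile, was 16.6 to 18.8 in water, 16.6 to 17.2 in low drinkers, 16.4 to 18.1 in early high drinkers and 16.8 to 20.5 in late high drinkers. None of the 10 passed an adjusted p of 0.05, and Cd68, a lysosomal protein of macrophages, gave -0.18 (limma adjusted p = 0.819), past the unadjusted threshold alone. The list went both ways, with 0.21 for Itgam, a subunit of a complement receptor (limma adjusted p = 0.820). Of 7 markers of blood leukocytes, Ccr2, the receptor for CCL2, was well above background on 1 array, and their summed signal was 2.14 to 2.28 in water, 2.21 to 2.60 in low drinkers, 2.03 to 2.42 in early high drinkers and 2.09 to 2.29 in late high drinkers. Ptprc, which encodes the leukocyte antigen CD45, gave -0.21 (limma adjusted p = 0.819), also past the unadjusted threshold alone. The summed signal of markers of the anterior pituitary was 3.25 to 12.4 in water, 6.90 to 9.40 in low drinkers, 0.911 to 3.37 in early high drinkers and 3.93 to 6.44 in late high drinkers, so that all 6 high drinker arrays lay below all 3 low drinker arrays. That of 3 markers of red blood cells was 120 to 148 in water and 74.7 to 102 in late high drinkers, with all late high drinker arrays below all water arrays. That of 3 markers of neurons was 83.7 to 87.2 in water and 87.9 to 94.3 in late high drinkers, with no overlap. The part of any of these in the values of the 9 genes was not tested.

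Across the 12 arrays the 6 genes above background did not move as a block. The highest Pearson correlations between them, over 12 arrays that share scaling and slides, were 0.69 for Tlr4 and Ccl2 and 0.56 for Tlr4 and Tlr2, in both cases with low drinker pool 2 as the highest array of each gene. Myd88 and Nfkbia gave -0.34 and Ccl2 and Nfkbia 0.01. Among 23617 probes that carried a gene symbol and were well above background on all arrays, the genes most like Tlr2 were Cela1 (r = 0.957), Arf6 (0.945) and Med22 (0.890). For Tlr3 they were Ube2j1 (0.880), Ranbp1 (0.877) and Arrdc4 (0.876), and for Myd88 Dtx4 (0.877), Acaa1b (0.854) and Cspp1 (0.849). For Nfkbia they were Susd6 (0.882), Pdk4 (0.869) and Gata3 (0.865), and for Ccl2 Xrcc4 (0.901), Zim1 (0.897) and 1810006K21Rik (0.878). None of the 9 genes or of the other pathway genes was among them. So short a list from 23617 probes would seldom hold a pathway gene, so this absence tells little about shared movement. These r were picked as the highest over 23617 probes on 12 arrays, and the height that chance alone gives was not computed.

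Since NF-κB is the step that joins these genes, their promoters were searched for an NF-κB motif, spelled GGGANTTTCC. A set of RefSeq promoters (GRCm38.p6) was read on both strands from 250 bases before to 50 after the start. The set used held 7 of 9 genes, without an entry for Tlr4 and Ccl2. Of the 7, 3 held the motif, against 0.411% of all 32851 promoters. The matches are shown in capitals with their flanks, on the strand of the gene.

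Nfkbia, chr12:55492652-55492691: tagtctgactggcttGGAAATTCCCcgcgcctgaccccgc

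Tlr3, chr8:45410567-45410606: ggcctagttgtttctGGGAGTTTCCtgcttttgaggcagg

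Il6, chr5:30013055-30013094: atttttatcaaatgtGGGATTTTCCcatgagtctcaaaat

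The match of Nfkbia ends 20 bases before the start and lies on the other strand, so that the capitals are the reverse complement of the motif, that of Il6 ends 35 bases before it, and that of Tlr3 ends 202 bases before it. Of these, Nfkbia and Tlr3 were well above background on every array and Il6 on 0. A match is a description of these letters alone. None of the 3 genes differed between alcohol and water at an adjusted p of 0.05 where it could be tested.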

How the data were processed

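Hypothalamic RNA of 12 pools was labeled with Cy3 and hybridized to Agilent mouse 4 × 44K arrays. Each array has a deposited scanner file, in which Agilent Feature Extraction (version 10.5.1.1 per the file headers) gives a background-corrected signal intensity per spot on a linear scale, and the authors also deposited a table of mean intensity per probe with no scaling between arrays. The log2 of each deposited intensity minus the log2 of its array's 75th percentile was used. As in the paper's Methods, spots marked as non-uniform, or whose signal was less than 2 times its error, counted as missing, and a probe needed values on over 50% of the arrays of each group, which left 32376 of 41174 probes for alcohol against water and 31622 for 4 groups. Values per array are means of all spots but outliers. Comparisons used limma 3.58.1 in R 4.3.3 (lmFit, eBayes), with Benjamini-Hochberg adjustment over all probes tested and a call at an adjusted p under 0.05. Single values had an exact permutation test. A gene with several tested probes is given by the probe with the highest mean.

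All 9 genes were named, and in comparisons other than alcohol against water those at an unadjusted p under 0.05. Of the pathway list, genes at an adjusted p under 0.05 were to be named, or else up to 3 rises and 3 falls at an unadjusted p under 0.05 on probes well above background on at least 10 arrays. The genes, lists and rules were chosen with earlier results of these data known. Symbols of other genes came from RefSeq through the accession (25089 probes matched). Alternatives covered the scaling, background correction (normexp, offset 50), the deposited table, the filters, slide, scan day and replicate number as blocks, the methods' t-test, the choice of probe, and each array left out. On simulated data with 200 probes moved by 1 on the log2 scale, 157 were recovered with 10 false calls for alcohol against water (32376 probes). Over 31622 probes 136 were recovered for any difference among the 4 conditions and 140 for low drinkers against water. For the high against the low drinkers 154 were recovered, and for late against early 141. The simulated data held no slide or scan day effect. The differences given for the 9 genes were smaller than 1, and recovery at their size was not simulated. No 2 arrays were identical, and their correlations lay between 0.979 and 0.996. The number of arrays limits the precision.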

Additional observations from a re-analysis of the deposited data

Results flagged for a closer look

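Among the 9 alcohol arrays, 1 array lay far from the rest for 2 of 11 probes, with a gap to the nearest array that, over the whole range, passed Dixon's 95% critical value for 9 values. Chance gives this for about 1 in 20 measures, or 0.55 of 11. Both were the array of low drinker pool 2. For Tlr4 the ratio was 0.552, with a scaled log2 signal of -4.33 on that array and -5.18 on the next, low drinker pool 3. On that next array 0 of 10 spots of Tlr4 were well above background. The same held for the lowest array, early high drinker pool 1 at -5.87, so this ratio rests on signal near the background. For Tnf the ratio was 0.529, with -4.73 on that array and -6.39 on the next, early high drinker pool 2. Tnf was well above background on 0 of 12 arrays, as were 3 others of the 11 probes (Il1b, Il6 and the second of Tlr4), so its ratio describes signal near the background. On low drinker pool 2 all 10 spots of Tlr4 and 4 of 10 spots of Tnf were well above background. The same array had a lower quartile of the signal intensity of 63.2, against 22.3 to 34.0 on the other arrays, and held the highest value for 56.8% of the 6398 probes that were well above background on 0 arrays. The part of this in both values was not tested. Under quantile normalization, low drinkers against water had a limma adjusted p of 0.978 for Tlr4 and 0.492 for Tnf. In the main fit these were 0.521 and 0.0753.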

How the results depend on the processing

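The count of members called, 0 in each of the 7 comparisons, stayed at 0 in 156 of 161 refits, and the gene called in the other 5 was Tnf, which was well above background on 0 of 12 arrays. Tnf passed in low drinkers against water with no scaling between arrays (1 gene, limma adjusted p = 0.0429) and in the high against the low drinkers with scan day as a block (1 gene, limma adjusted p = 0.0248). Leaving out each array in turn gave 0 to 1 called for any difference among the 4 conditions (1 without early high drinker pool 3), for low drinkers against water and for the high against the low drinkers (1 without low drinker pool 1 in both), and 0 to 0 in the other comparisons. With all spots, no filter on signal/noise, 0 were called. The well above background filter left Tnf untested. In the comparisons of the 4 groups it was also untested without late high drinker pool 1 or 2. Those refits could not call it.

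For single genes in alcohol against water, the log2 change of Tlr2 turned to -0.049 without water pool 3 and to -0.011 without low drinker pool 2, and lay between -0.049 and 0.15 over all arrays left out. Ccl2 turned to -0.10 under quantile normalization, to -0.16 with slide or scan day as a fixed block and to -0.014 with slide as a random block, and lay between -0.061 and 0.13 over the arrays left out, with -0.061 without water pool 3, -0.016 without low drinker pool 2 and -0.002 without late high drinker pool 1. Tlr3, Myd88 and Nfkbia kept their sign under every alternative run, and none of these 5 had an adjusted p under 0.05, but several values shrank. Nfkbia fell from 0.19 to 0.019 with slide or scan day as a fixed block and Tlr3 from 0.10 to 0.018 under quantile normalization. With arrays left out, Tlr3 lay between 0.05 and 0.14, Myd88 between -0.17 and -0.05 and Nfkbia between 0.09 and 0.25; Stat3 lay between 0.17 and 0.27, Ccl12 between -0.63 and -0.37 and Tlr9 between -0.31 and -0.23. With slide or scan day as a fixed block, the values rest on slide 1 alone, low drinker pool 1 against the 3 water pools. The cause of the other shifts was not tested.

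The labels number pools 1 to 3 in every group. Same-numbered pools of different groups correlated by -0.09 to 0.18 in their deviations from the group means, so the numbers were not read as pairs. With the replicate number as a block, 0 genes were called in every comparison, with a smallest limma adjusted p of 0.860 in alcohol against water. Signal over background limits Tnf, Il1b, Il6 and the second probe of Tlr4, for which no level can be given.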
